A study of Arabidopsis thaliana with 4 samples.

Results

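PR1, PR2 and PR5 are the pathogenesis-related genes most often read as markers of salicylic acid (SA) responses in Arabidopsis thaliana, and their transcripts were followed in leaves before and after probenazole (PBZ). The 3 genes were chosen by name, but with earlier results of these data known. They were PR1 (AT2G14610, probe set ID.266385_at), PR2 (AT3G57260, listed in RefSeq as BGL2, probe set ID.251625_at) and PR5 (AT1G75040, probe set ID.259925_at). Each was read from 1 probe set, and all 3 were found among the 16319 probe sets of the table. The annotation table used for the other probe sets lists no gene for these 3, so their names rest on the probe set IDs of the array's design.

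The plants, whose accession or genotype the labels do not name, were 5 weeks old and grown in short days of 8 h light and 16 h dark. The roots were drenched with 0.5 mM PBZ, a plant defence activator applied by the submitters so that the plants would make SA of their own. Rosette leaves 5 to 8 were taken from untreated plants at 0 h (before PBZ, 2 biological replicates) and from drenched plants at 72 h (after PBZ, also 2). Each RNA sample had its own Affymetrix array, 4 in all. No leaves kept without PBZ until 72 h were among the samples, so the effect of PBZ and that of the elapsed time cannot be told apart.

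SA is perceived by the NPR receptors, and NPR1 acts with TGA transcription factors at the promoters of defence genes. PR1, PR2 and PR5 lie at the output end of this pathway and encode secreted proteins. PR1 is a small protein of the CAP family, PR2 is a beta-1,3-glucanase that cuts a glucan of fungal cell walls, and PR5 is a thaumatin-like protein of a family with antifungal members.

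The arrays differed in brightness, with median signals of 19.2 and 27.6 before PBZ and 32.5 and 27.1 after it. The geometric mean signal of 9 probe sets for the bacterial and phage transcripts that are spiked into such hybridisations was 613 and 615 before PBZ and 932 and 511 after it, so it did not separate the groups. For actin the 3' signal over the 5' signal, a sign of RNA integrity or cRNA length, was 2.54 on the array of before replicate 1 and 10.6 to 12.9 on the others. The other controls were far lower on every array. For GAPDH the ratio was 0.972 on the array of before replicate 1 and 1.42 to 1.68 on the others. For ubiquitin it was 0.649 and 0.999 to 1.91. Of 13 leaf markers 3 were matched to a probe set, and LHCB4.2, PRK and SBPASE read between 1856 and 5331 on every array. The root marker PYK10 read 3.3 to 11.7, close to 6.3, the lower quartile of all signals. The guard cell marker FMA (FAMA) read 22.5 to 35.5 and the phloem marker SWEET11 1118 to 2009. None of these leaf and cell type markers passed the test between the groups as reported. PRK, at a log2 change of -0.97, passed as a fall under quantile normalization (limma adjusted p = 0.0188), with arrays centred on their medians (0.0187) and with the replicate block (0.0314). The part of these markers in the results was not tested. In whole leaves, a change in the share of cells that hold a transcript and a change in RNA per cell cannot be told apart.

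PR1, PR2 and PR5 all rose after PBZ, from signals of 6.3 to 123 before it to signals of 1649 to 5911 after it. The rise was about 205-fold for PR1, 81.9-fold for PR2 and 49.9-fold for PR5 as ratios of geometric means. Each gene passed the test (limma, 2-sided, adjusted p under 0.05 over 12239 tested probe sets), where 5.34% of all tested probe sets were called higher. For each of the 3, both arrays after PBZ lay above both arrays before it, which was so for 36.1% of tested probe sets.

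For PR1, the signal was 6.3 and 27.6 on the 2 arrays before PBZ and 3286.9 and 2220.7 on the 2 arrays after it. Before replicate 1 was thus at the lower quartile of all signals and before replicate 2 at the median of its own array, while both arrays after PBZ were among the brightest signals. The means were 16.95 ± 15.1 and 2754 ± 754 (SD, n = 2 each), and the log2 change was 7.68 ± 0.61 (SE; limma adjusted p = 6.95e-10). Its 95% interval ran from 85.8-fold to 489-fold. The fit used a log2 SD of 0.614 for PR1, where its own replicates gave 1.10, so its own spread would give a wider interval. For PR2 the SD used was 0.546 against 0.507, and for PR5 0.503 against 0.622. The lowest PR1 array after PBZ stood 80.5-fold above the highest before it.

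The size of the PR1 rise depended on which array before PBZ was read, and 2 arrays cannot show which reading was the more typical. The arrays before PBZ differed 4.38-fold from each other, those after it 1.48-fold. Without before replicate 1 the rise was 97.9-fold, and without before replicate 2 it was 429-fold (limma adjusted p = 4e-06 and 4.35e-07). Before replicate 1, where PR1 read lower, was also the array with the lowest median signal and the lowest actin ratio, whose part in the PR1 value was not tested.

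For PR2, the signal was 28.2 and 29 before PBZ and 3327.9 and 1649 after it. The arrays before PBZ were nearly level and those after it differed 2.02-fold, with replicate 1 the higher. The means were 28.6 ± 0.566 and 2488 ± 1187 (SD, n = 2 each), with a log2 change of 6.36 ± 0.55 (SE; limma adjusted p = 2.29e-09) and a 95% interval from 37.8-fold to 177-fold. The lowest array after PBZ was 56.9-fold above the highest before it.

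For PR5, the signal was 64.5 and 123.2 before PBZ and 5910.5 and 3342.8 after it. It was the one of the 3 genes that lay well above its array's median on both arrays before PBZ, at 3.36 and 4.46 times that median. The means were 93.8 ± 41.5 and 4627 ± 1816 (SD, n = 2 each), and the log2 change was 5.64 ± 0.50 (SE; limma adjusted p = 3.69e-09), with a 95% interval from 24.5-fold to 102-fold. The lowest array after PBZ was 27.1-fold above the highest before it.

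**Figure D1:**
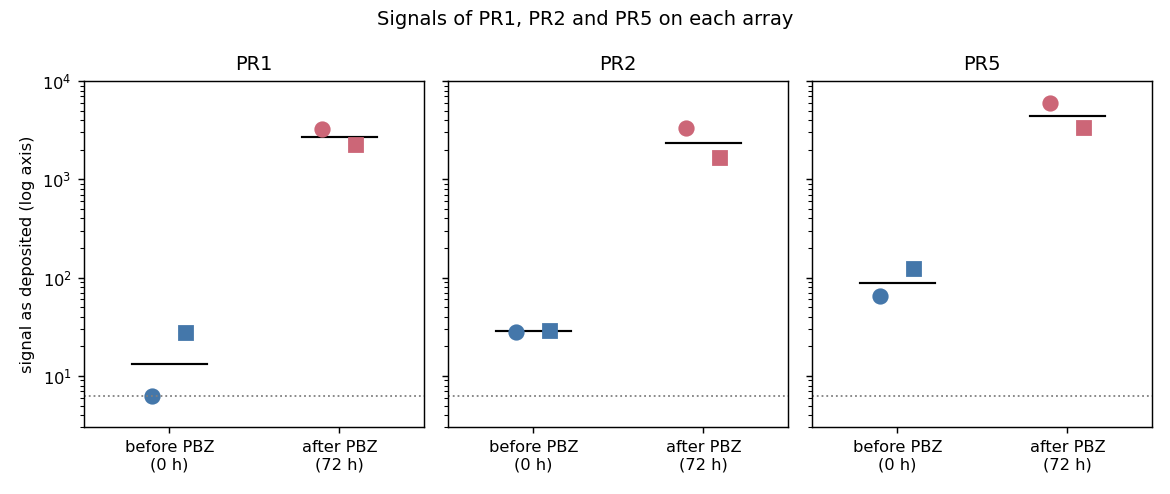
Signal as deposited (log axis) of PR1, PR2 and PR5 on the 2 arrays before PBZ (blue) and the 2 after it (red). Circles are replicate 1, squares replicate 2, black lines geometric means, and the dotted line is 6.3, the lower quartile of all signals. The groups do not overlap for any of the 3 genes, and PR1 before PBZ has the widest spread, at 6.3 and 27.6.

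The position of each gene within its own array gives the same contrast without any scaling between arrays. PR1 was brighter than or level with 28.6% and 50.0% of the 16319 probe sets before PBZ and 99.4% and 99.0% after it. PR2 moved from 57.6% and 51.0% to 99.5% and 98.5%. PR5 moved from 75.0% and 79.1% to 99.8% and 99.5%, and on the array of after replicate 1 only 28 probe sets were brighter. Probe sets differ in how brightly they report, so these positions are comparable between arrays for 1 gene and not between genes.

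Relative to the spiked transcripts, the arrays after PBZ came closer together. The PR1 signal was 0.0103 and 0.0449 times the geometric mean of the spiked probe sets before PBZ and 3.53 and 4.35 times after it. PR2 was at 0.0460 and 0.0471 times before and 3.57 and 3.23 times after. PR5 was at 0.105 and 0.200 times before and 6.34 and 6.55 times after. The spiked signal of after replicate 1 was also the highest of the 4, so the higher raw signals of that replicate were not seen on this scale for PR1 and PR5.

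Ranked among all 12239 tested probe sets by the ratio of geometric means, with signals under 6.3 set to 6.3 because folds below it are poorly measured, 2 stood ahead of PR1, 7 ahead of PR2 and 16 ahead of PR5. This floor was chosen after the data were seen. Ranked by the lowest array after PBZ over the highest before it, which uses no fit, 6 probe sets stood ahead of PR1, 13 ahead of PR2 and 32 ahead of PR5. Over all tested probe sets the median was a log2 change of 0.37.

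**Figure D2:**
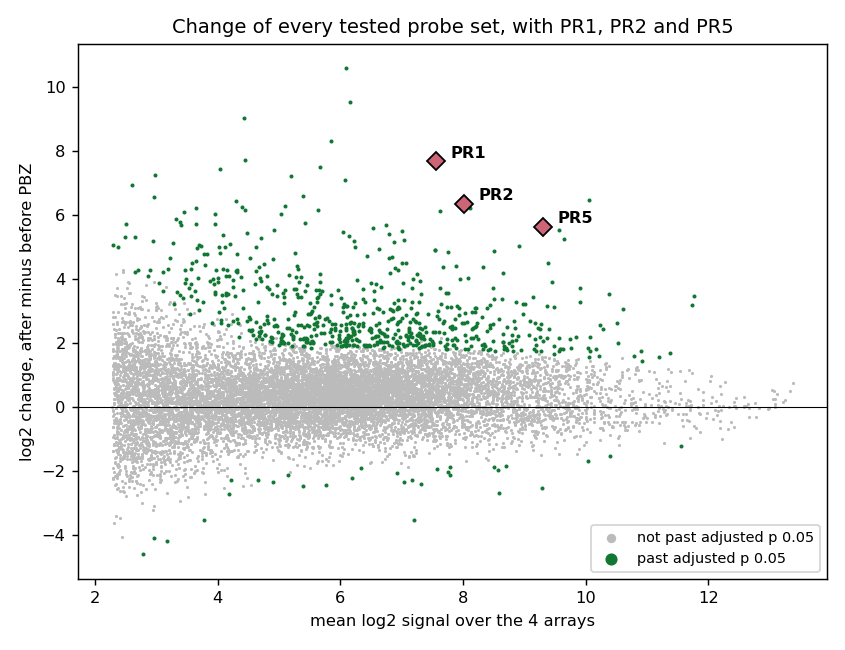
Log2 change after minus before PBZ (vertical axis) against the mean log2 signal over the 4 arrays (horizontal axis) for the 12239 tested probe sets. Green points passed adjusted p 0.05, and the diamonds are PR1, PR2 and PR5, at 7.68, 6.36 and 5.64.

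The 3 genes were compared with each other through the ratio of their signals within an array, in which any scaling of the array cancels. The log2 ratio of PR1 to PR5 was -3.36 and -2.16 before PBZ and -0.85 and -0.59 after it. By the means, the rise of PR1 was 4.11 times that of PR5 (difference of log2 changes 2.04 ± 0.61, SE). The log2 ratio of PR2 to PR5 was -1.19 and -2.09 before and -0.83 and -1.02 after, a difference of 0.72 ± 0.46. The log2 ratio of PR1 to PR2 was -2.16 and -0.07 before and -0.02 and 0.43 after, a difference of 1.32 ± 1.07. The ratios before and after PBZ did not overlap for any pair, though by a narrow gap for PR1 to PR2. Each ratio follows from the other 2, so these are not 3 separate observations. With 2 arrays against 2, a lack of overlap cannot show that the rises differed (exact permutation test over arrays, 2-sided, p = 0.333).

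These 3 pairs were all that were compared, and the design cannot call any of them different. The exact permutation test over arrays (2-sided) gave p = 0.333 for each pair, which is the smallest p that 2 arrays against 2 allow, so no adjustment over the 3 pairs was needed. The order of the rises, PR1 over PR2 over PR5, was kept with each array left out, but the sizes were not: without before replicate 1 the PR1 rise exceeded that of PR2 by 1.21-fold in place of 2.50-fold and that of PR5 by 2.71-fold. Without before replicate 2 the PR1 excess was 5.16-fold over PR2 and 6.22-fold over PR5. The differences were 1.24 times their SE between PR1 and PR2, 1.57 times between PR2 and PR5 and 3.33 times between PR1 and PR5. Each SE rests on 2 arrays per group and is itself poorly known, so these multiples are no test.

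**Figure D3:**
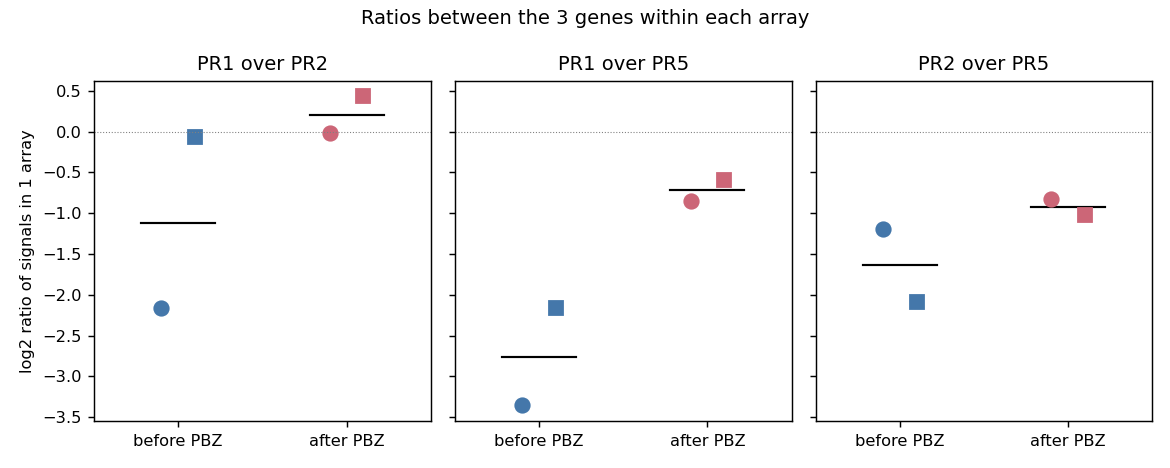
Log2 ratio of the signals of 2 genes in the same array (vertical axis), before (blue) and after (red) PBZ, for each pair of PR1, PR2 and PR5. Circles are replicate 1, squares replicate 2 and black lines means. The ratio of PR1 to PR5 moves most, from -3.36 and -2.16 to -0.85 and -0.59, and the ratio of PR1 to PR2 before PBZ spreads from -2.16 to -0.07.

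The profiles of the 3 genes over the 4 arrays, each centred on its own mean, differed by a root mean square of 0.48 in log2 between PR2 and PR5, 1.00 between PR1 and PR2 and 1.11 between PR1 and PR5. Among the 6799 tested probe sets paired with 1 locus, the 3 nearest to each gene by this measure were 9 genes, of which 2 were above the lower quartile of all signals on all arrays. One was CHI (AT2G43570), annotated as a chitinase and near PR2 at 0.25, which read 28.8 and 19.4 before PBZ and 2373.1 and 1128.5 after it, with the higher replicate 1 after PBZ, as PR2 had. The other was AT1G13470, near PR5 at 0.33, which read 9.8 and 18.2 before PBZ and 541.3 and 336.1 after it. The other 7 had at least 1 array before PBZ under the lower quartile, so their distances were poorly measured and give no order. Near PR1 these were UGT76B1, a glucosyltransferase that acts on SA, AT2G18690 and AT4G00700, at least 50.2-fold, 88.3-fold and 60.0-fold higher after PBZ with signals under 6.3 set to 6.3, against 205-fold for PR1. Near PR2 they were AT2G42360 and AT1G05340, at least 14.4-fold and 29.0-fold higher, and near PR5 AT1G78410 and AT4G30640, at least 12.3-fold and 6.25-fold higher. Those near PR2 and PR5 read 0.9 to 2.1 on the arrays before PBZ. As the dim filter uses the mean over all 4 arrays, they were tested only through their signals after PBZ, like UGT76B1 and AT4G00700. Their rises and calls are therefore no separate support. The bound of AT4G00700 was 33.8-fold without after replicate 1 and 107-fold without after replicate 2, and AT2G42360 and AT1G78410 did not pass without after replicate 1 (limma adjusted p = 0.0872 and 0.0834). With 4 arrays in 2 groups, likeness is mostly a like size of rise.

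Most of the relatives in the CAP, beta-1,3-glucanase and thaumatin families that could be tested were not called, as was so for most of all tested probe sets. Of 63 listed relatives, 53 were matched to a probe set and 27 were bright enough to be tested. Of these 27, 1 rose, 1 fell and 25 did not pass (3.70% higher and 3.70% lower, against 5.34% and 0.245% of all tested probe sets), and their median log2 change was -0.11, against 0.37 over all tested probe sets. The other 26 matched genes were too dim to be tested. Listed relatives without a matched probe set were not read, so these counts do not cover them.

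AT3G13560, listed as a family 17 glycoside hydrolase like PR2, read 25.2 and 36.7 before PBZ and 268.3 and 195.2 after it. Its groups did not overlap, and it rose by a log2 change of 2.91 ± 0.56 (SE, limma adjusted p = 0.000894), 7.53-fold. AT4G25780, of the CAP family like PR1, read 58.1 and 53.3 before and 8.9 and 14.8 after, and fell by 2.28 on the log2 scale (SE 0.62, limma adjusted p = 0.0223). That fall did not pass without before replicate 1 (adjusted p = 0.185), before replicate 2 (0.0561) or after replicate 1 (0.298), with no dim filter (0.128), with the replicate block (0.0598), without an intensity trend (0.122) or against a 1.5-fold change (0.127), and the rise of AT3G13560 did not pass without an intensity trend in the error model (0.0605).

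Of the relatives that did not pass, those with the smallest p were the glucanase relatives AT1G33220, AT4G34480, AT2G05790 and AT1G11820. AT1G33220 was at 2.92 ± 1.28 in log2 (SE; limma adjusted p = 0.226), with both arrays before PBZ under the lower quartile of all signals. AT4G34480 was at 0.98 ± 0.56, AT2G05790 at -0.91 ± 0.55 and AT1G11820 at -0.71 ± 0.57. AT2G05790 passed as a fall under quantile normalization (log2 change -1.51, adjusted p = 0.0309).

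Genes next to PR1, PR2 and PR5 on the chromosomes were looked at as well, a choice made after the files were seen. Among the 5 protein-coding genes on either side in the RefSeq annotation (TAIR10.1), 2 were matched for PR1, 6 for PR2 and 3 for PR5. Of these, 2 neighbours of PR1, 4 of PR2 and 1 of PR5 were tested. Neighbours without a matched probe set were not read. AT3G57280, the second gene from PR2, was the one called, 1 of 7 tested neighbours (14.3%, against 5.34% of all tested probe sets). It read 183.9 and 256.8 before PBZ and 737.4 and 1127.5 after it, a rise of 4.196-fold (log2 change 2.07 ± 0.51, limma adjusted p = 0.0101), which ended as a call when before replicate 1 (adjusted p = 0.0828) or either array after PBZ (0.114 and 0.426) was left out, without an intensity trend (0.159) and against a 1.5-fold change (0.0943). The tested neighbours of PR1, AT2G14520 and AT2G14660, were at 0.18 ± 0.66 and 0.33 ± 0.59, and AT1G74990 near PR5 at 0.54 ± 0.94. AT1G75050, the thaumatin relative next to PR5, read 2.6 and 1.4 before PBZ and 2.3 and 8 after it and was too dim to be tested.

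Upstream of the PR genes, few genes of SA metabolism and perception could be matched to a probe set, since the annotation lists no gene for 6278 of the 16319. Of 15 listed genes of SA synthesis and turnover, 3 were matched and 1 was tested, UGT76B1, which rose (limma adjusted p = 1.33e-08). It read 0.6 and 3.8 before PBZ, both under the lower quartile of all signals, and 384.2 and 260.1 after it. The dim filter uses the mean over all 4 arrays, so UGT76B1 was tested only through its signals after PBZ. Its call therefore says nothing of the list as a whole. UGT74F1, another SA glucosyltransferase, read 0.7 to 3.1 and BSMT1, an SA methyltransferase, 0.8 to 12.1, both too dim to be tested. Of 23 listed genes of SA perception and transcription, 2 were matched and both rose, where 5.34% of all tested probe sets did. This list was chosen with earlier results of these data known, so its share is no test. The transcription factor WRKY53 rose 25.9-fold (log2 change 4.69 ± 0.63), or 12.7-fold without before replicate 1 and 52.8-fold without before replicate 2. GRX480, a glutaredoxin that binds TGA factors, rose by a log2 change of 4.47 ± 0.66, with 1 array before PBZ under the lower quartile of all signals. With that signal set to 6.3 the rise was at least 14.8-fold, and without before replicate 2, the low array, it was 10.9-fold. NPR1, the TGA factors and the SA synthesis enzyme ICS1 were not analysed here. Of the 11 listed markers of jasmonate and ethylene defence 1 was tested, the thionin THI2.1, which read 5 and 1.8 before PBZ and 13 and 10.4 after it and did not pass (log2 change 1.95 ± 1.31, limma adjusted p = 0.491).

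PR proteins are secreted, and genes of the endoplasmic reticulum through which secreted proteins pass were listed for that reason. Of 17 listed, 5 were matched and tested, and 4 rose (80% against 5.34% of all tested probe sets), with a median log2 change of 3.08 over the 5. The list was chosen with earlier results of these data known, so this share is no test of a secretory response. The co-chaperone ATERDJ3B read 94.9 and 207.3 before PBZ and 4090.5 and 2488.1 after it (22.7-fold). The listed translocon subunits AT1G29310 and AT2G34250 rose 8.47-fold (limma adjusted p = 0.000403) and 5.48-fold (0.00116), and the calreticulin CRT1b 8.97-fold. BZIP60, which switches on genes of the unfolded protein response, was at a log2 change of 1.75 ± 0.55 (adjusted p = 0.0571). AT2G34250 did not pass without after replicate 1 (adjusted p = 0.0753) or after replicate 2 (0.0951), nor CRT1b without after replicate 1 (0.0629). Both also failed with no trend in the error model (0.0968 and 0.0605), which left 2 of the 4 calls.

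**Figure D4:**
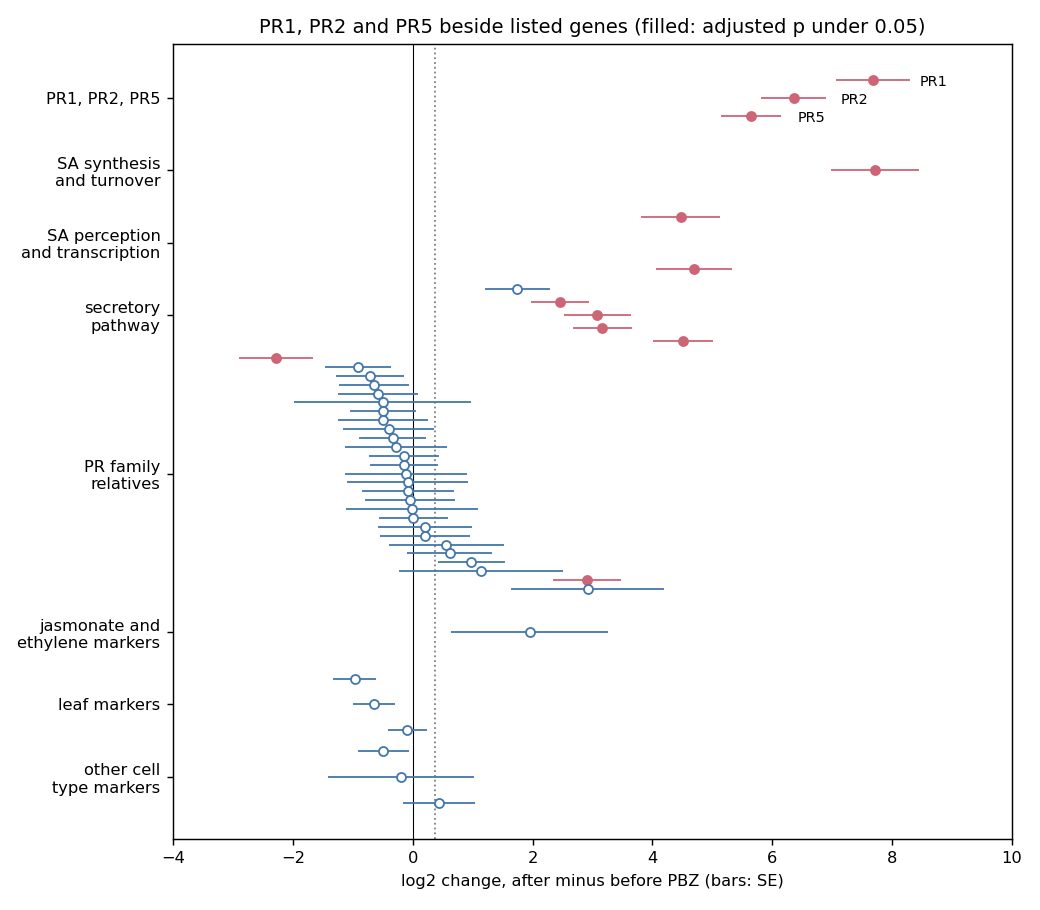
Log2 change after minus before PBZ (points, with SE bars) of PR1, PR2 and PR5 and of each tested gene of the 7 lists. Filled red points passed adjusted p 0.05 and the dotted line is the median of all tested probe sets, 0.37. The PR family relatives lie around a median of -0.11, and PR1, PR2 and PR5 at 5.64 to 7.68.

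PR1, PR2 and PR5 each passed under all 13 alternatives of scaling, filter, error model and samples, with log2 changes from 6.61 to 8.74 for PR1, from 5.85 to 6.86 for PR2 and from 5.17 to 6.11 for PR5. The largest adjusted p, without an intensity trend in the error model, was 0.00771 for PR1, 0.00745 for PR2 and 0.0109 for PR5.

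**Figure D5:**
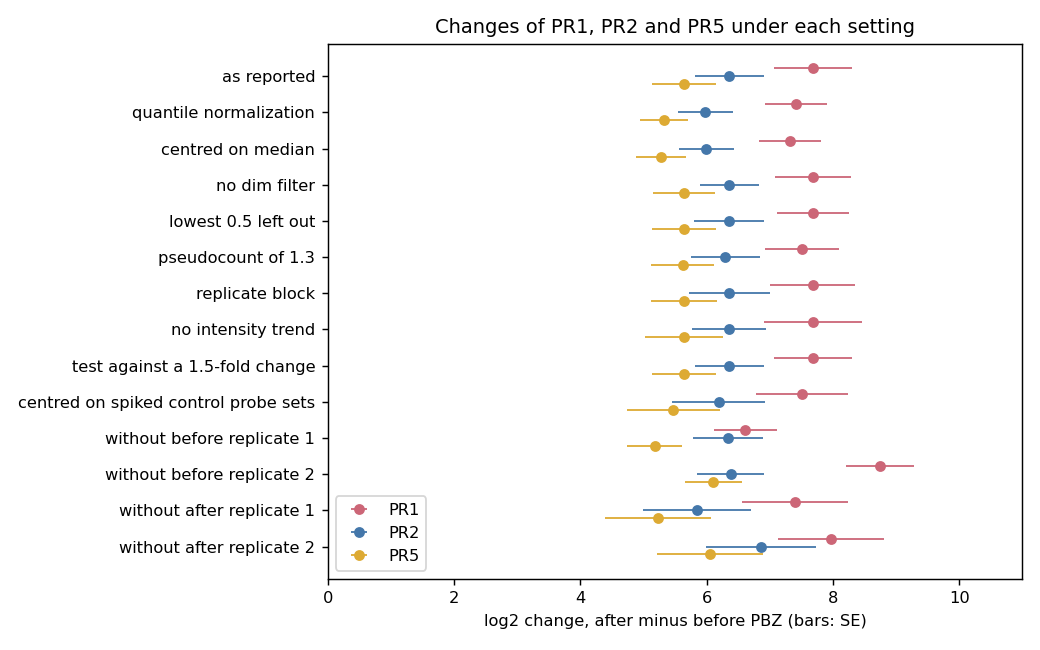
Log2 change after minus before PBZ (points, with SE bars) of PR1 (red), PR2 (blue) and PR5 (yellow) as reported and under the 13 alternatives. All points lie above 5, and PR1 moves most, between 6.61 without before replicate 1 and 8.74 without before replicate 2.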

How the data were processed

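Leaf RNA of 4 samples, 2 per group by the sample titles, was hybridised to Affymetrix arrays. The submitters' processing notes name GCOS. Its version and its scaling of the arrays were not stated there. Deposited numbers are linear signal intensities and were not rescaled. After 64 control rows were left out, 16319 probe sets remained, of which 9647 had 1 RefSeq locus (TAIR10.1, used for names and gene order only), 356 several genes and 6278 no gene listed.

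Tests ran on log2 signals, the 2 zeros being set to 0.1. The lowest 0.25 by mean (4080 probe sets) were left out as dim. The groups were compared with limma 3.58.1 (R 4.3.3), with a trend of the error on intensity in eBayes, 2-sided and Benjamini-Hochberg adjusted at 0.05. There were 2 residual and 27.2 prior degrees of freedom, so errors lean on all probe sets, and 2 arrays per group limit the precision. Detection calls were not used here. List genes were read from their brightest probe set.

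The rule names PR1, PR2 and PR5, list genes that were called, up to 4 others per list with the smallest p, and the 3 nearest profiles per gene; dim genes and neighbours named besides were chosen after their values were seen. The genes and lists were chosen with earlier results of these data known. On simulated data (12239 probe sets, after PBZ against before PBZ) the fit recovered 27 of 70 log2 changes of 2, 53 of 65 of 4 and 56 of 65 of 6, with 11 false calls. The simulated errors were independent and normal, with the SD of the fitted trend for every probe set and no scaling differences between arrays. These rates therefore need not hold for the real arrays. Alternatives were quantile normalization, centring on medians, other dim filters, a pseudocount of 1.3, a replicate block, no trend, a 1.5-fold null, each array left out and, added after the data were seen, centring on the spiked controls.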

Additional observations from a re-analysis of the deposited data

How the results depend on the processing

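PR1, PR2 and PR5 kept their direction and passed under all 13 alternatives. With each array left out in turn, the log2 change ran from 6.61 to 8.74 for PR1, 5.85 to 6.86 for PR2 and 5.17 to 6.11 for PR5, and the difference of changes from 0.28 to 2.37 for PR1 minus PR2, 1.44 to 2.64 for PR1 minus PR5 and 0.27 to 1.16 for PR2 minus PR5. The labels do not say whether the replicate numbers pair the samples. Deviations of same-numbered arrays correlated at -0.06 over 12239 probe sets, which with 2 arrays per group cannot settle it. With the replicate block the log2 changes were the same, 7.68, 6.36 and 5.64, and 543 probe sets were called higher and 29 lower.

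The background counts moved more than the 3 genes did, and the cause was not tested. As reported, 653 probe sets were called higher and 30 lower (95.6% of calls higher). Quantile normalization gave 546 and 278 (66.3% higher) and centring on medians 604 and 179 (77.1%), and these shifted the median change over all tested probe sets from 0.37 to -0.06 and 0.01. No intensity trend gave 157 and 8, a test against a 1.5-fold change 362 and 8, and centring on the spiked controls 368 higher. Lower calls were 15 with no dim filter and 48 with the lowest 0.5 left out. With each array left out, 213 to 1145 were called higher and 11 to 41 lower.

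Of the members of the 5 pathway and relatives lists, 8 were called higher as reported and 5 without an intensity trend, and 6 to 10 with each array left out. The 1 lower call became 2 under quantile normalization and 0 with no dim filter, with the lowest 0.5 left out, with the replicate block, without a trend and against a 1.5-fold change, and 0 to 1 with each array left out. The lowest 0.5 setting leaves fewer probe sets to test. For 30 other named genes, 315 of 346 checks kept direction and call, 20 lost the call, 8 gained it and 3 turned direction. Those were PYK10, which ran from -1.11 to 0.72 with each array left out, and LHCB4.2, from -0.27 to 0.088. Under the lower quartile of all signals (6.3) a fold is poorly measured.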
